A study of Mus musculus with 6 samples.

Results

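The genes described here are the voltage-gated potassium channel genes that repolarize the heart, with a transcription factor that acts on them: Kcnip2, Kcnd2, Kcnd3, Kcna4, Kcna5, Kcne1, Kcnq1, Kcnh2 and Irx5. They were chosen by name for their role in ending the action potential, and are 9 of the 17891 genes listed in at least 1 sample. All 9 were listed in all 6 samples and passed the filter on low counts. Gene expression was measured by RNA sequencing of total RNA from the myocardium of 6-week-old C57BL/6 mice. The NS-DADm samples (n = 3) came from mice with whole-body knock-in mutations in the deacetylase activating domains (DADs) of a pair of corepressors of nuclear receptors. NCOR, the product of Ncor1, is 1 of them. The wild type (WT) samples (n = 3) were of the same background, age and tissue. The mutations were present in every tissue and not in heart muscle alone, and counts per gene do not show such base changes, so expression does not check the genotype labels. The labels do not say whether each sample is a separate mouse, so the p-values reflect only how these samples spread, which may be technical.

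In a cardiac myocyte, potassium leaving the cell through voltage-gated channels brings the membrane back to rest after each beat. The transient outward current opens and closes fast and shapes early repolarization. Its fast component in mouse ventricle runs through Kv4 pore subunits, encoded by Kcnd2 and Kcnd3, joined to the cytoplasmic subunit KChIP2, encoded by Kcnip2. KChIP2 raises the surface level of Kv4 channels and slows their inactivation. A slow transient component runs through the pore subunit encoded by Kcna4. The delayed rectifier currents open later: Kcna5 encodes the pore of an ultrarapid current, Kcnh2 the pore of the rapid current (hERG in humans), and Kcnq1 the pore of the slow current, to which the single-pass subunit encoded by Kcne1 is joined. The rapid and slow currents dominate repolarization in human heart and are small in adult mouse ventricle. Irx5, a homeodomain repressor of the Iroquois family, holds Kcnd2 low on the inner side of the mouse ventricular wall.

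Expression is given as FPKM, fragments scaled by transcript length and library size, a level per transcript length that allows genes to be set beside each other within a sample. Fold changes are NS-DADm over WT, from edgeR's quasi-likelihood test on the expected counts, with Benjamini-Hochberg adjustment over 13130 tested genes. A gene is said to have risen or fallen where its adjusted p was at most 0.05. Total expected counts were 12262491 to 12758270 in NS-DADm samples and 10183776 to 11205194 in WT samples. The correlation of log expression was 0.982 to 0.989 between samples of the same group and 0.972 to 0.985 between groups. No pair of samples was a repeat of the same library. Cardiomyocyte markers such as Myh6 and Tnnt2 summed to 58430 to 61570 FPKM in NS-DADm samples and 57170 to 61790 FPKM in WT samples, high in each. The summed atrial muscle markers were 3847, 597.1 and 6680 FPKM in NS-DADm samples 1, 2 and 3, against 558.2, 292.0 and 4777 FPKM in WT samples 1, 2 and 3. Atrial transcripts thus differed between samples of the same group, and the 9 genes are compared within the low and the high samples below. The related genes were not compared in this way.

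Of the 9 genes, 4 fell in NS-DADm myocardium (Kcnip2, Kcnd3, Kcna4 and Kcne1) and 1 rose (Kcnd2). Of all tested genes, 1.41% were lower and 1.79% were higher at the same threshold, 3.2% in all. The other 4 (Kcna5, Kcnq1, Kcnh2 and Irx5) did not pass it. The 3 NS-DADm values lay entirely above or entirely below the 3 WT values for 7 of the 9 genes, which held for 23.2% of all tested genes. Kcnip2, Kcne1 and Kcna4 differed by more than 2-fold, and the other 6 by less. Across all tested genes the log2 fold change had a median of 0.00 and a 5th to 95th percentile range of -0.43 to 0.50. In these bulk samples, fewer cells of a type and less RNA per cell cannot be told apart.

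**Figure D1:**
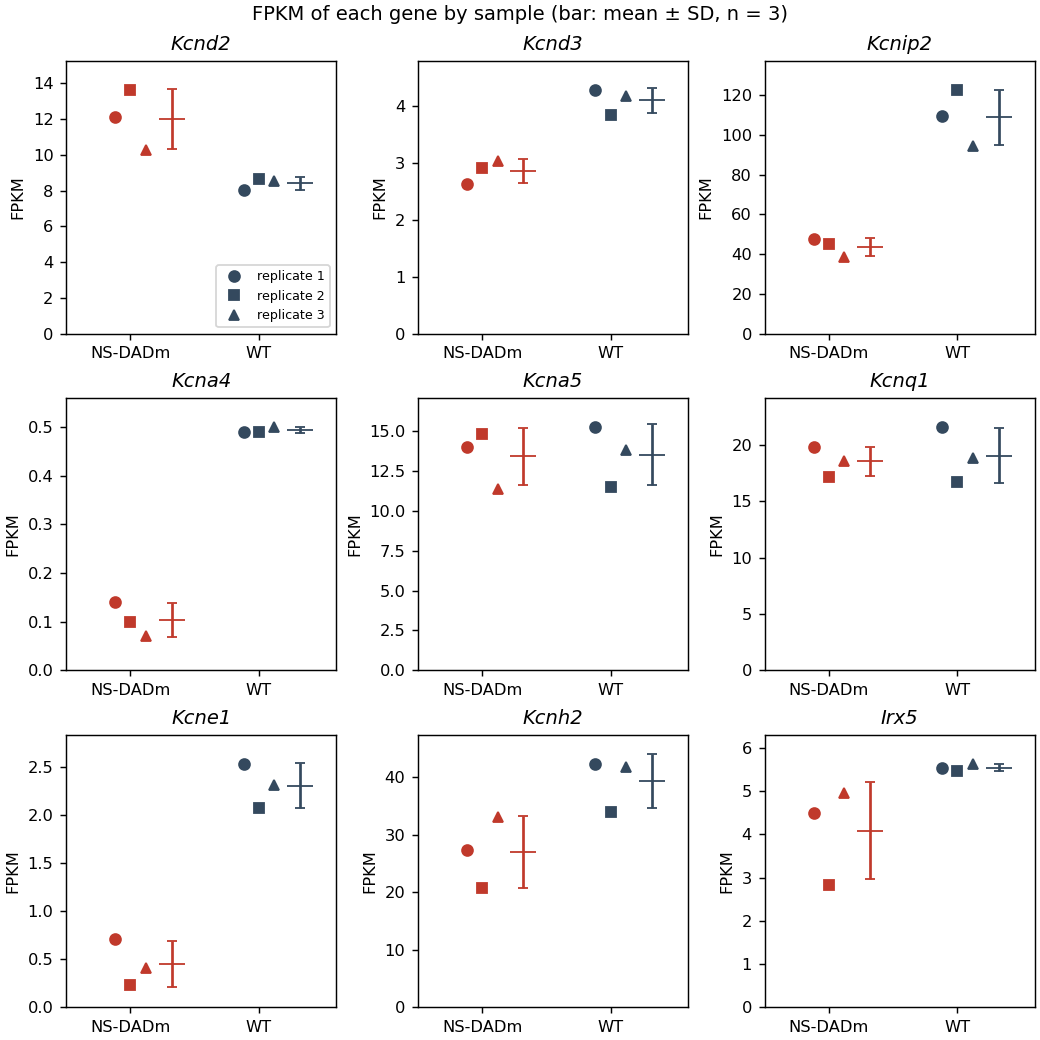
FPKM of the 9 genes in each sample, NS-DADm on the left and WT on the right of each panel, with the group mean and SD (n = 3 each) and an axis from 0. Kcnip2, Kcne1 and Kcna4 sit far lower in NS-DADm samples, Kcnd2 sits higher, and the groups overlap only for Kcna5 and Kcnq1.

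Kcnip2 (gene 80906) showed the smallest p of the 9 genes. Its level was 47.4, 45.0 and 38.6 FPKM in NS-DADm samples 1, 2 and 3, against 109.5, 122.5 and 94.6 FPKM in WT samples 1, 2 and 3. The highest NS-DADm sample lay below the lowest WT sample by a wide margin. Means were 43.7 ± 4.5 FPKM in NS-DADm and 108.9 ± 14 FPKM in WT (SD, n = 3 each), and Kcnip2 fell 2.40-fold (log2 fold change -1.27, SE 0.11, adjusted p = 0.000307). It ranked 14th by p among all tested genes. The log2 ratio of means was -1.37 within the samples low in atrial markers (NS-DADm 2 against WT 1 and WT 2). It was -1.14 within those high in them (NS-DADm 1 and NS-DADm 3 against WT 3). As the groups did not overlap over all 6 samples, the direction within each set was fixed beforehand, and only the size is described.

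Kcnip2 lies on the minus strand of chromosome 19 and was deposited as 4 transcripts, whose coding sequences differ only in how they begin. Their deposited lengths run from 2025 to 2414 bases. Their coding starts are shown because the isoforms have to be read from these bases. They are taken from GENCODE M21 (build GRCm38) by RefSeq identifier, and capitals mark coding bases that are not in all 4 transcripts. The lower-case tail of 30 bases is the start of the 587 coding bases, in 7 exons, that all 4 share.
NM_145703: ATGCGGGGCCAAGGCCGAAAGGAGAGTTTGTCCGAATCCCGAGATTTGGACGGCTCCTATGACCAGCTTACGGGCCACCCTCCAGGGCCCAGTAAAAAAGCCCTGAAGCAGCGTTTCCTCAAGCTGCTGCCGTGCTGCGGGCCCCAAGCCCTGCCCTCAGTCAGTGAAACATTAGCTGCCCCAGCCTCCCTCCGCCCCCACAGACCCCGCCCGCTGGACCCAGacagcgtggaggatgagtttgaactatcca
NM_030716: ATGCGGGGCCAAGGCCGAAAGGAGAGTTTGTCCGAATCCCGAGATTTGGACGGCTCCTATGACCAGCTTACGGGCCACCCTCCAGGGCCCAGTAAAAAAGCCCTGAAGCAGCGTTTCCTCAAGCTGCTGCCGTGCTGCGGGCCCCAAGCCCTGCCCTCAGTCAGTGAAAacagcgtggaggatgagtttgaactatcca
NM_145704: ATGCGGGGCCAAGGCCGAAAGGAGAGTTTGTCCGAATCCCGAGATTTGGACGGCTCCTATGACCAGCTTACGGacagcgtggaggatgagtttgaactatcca
NM_001276358: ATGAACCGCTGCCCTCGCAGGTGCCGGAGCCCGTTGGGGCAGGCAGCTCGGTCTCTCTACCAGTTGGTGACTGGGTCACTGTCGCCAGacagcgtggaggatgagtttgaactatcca

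The first 3 of these begin with the same 73 bases and differ by whether an exon of 96 bases and an exon of 54 bases follow. NM_001276358 begins with a different exon of 88 coding bases. NM_145703, the longest, had 26.2, 23.8 and 16.7 FPKM in NS-DADm samples and 51.1, 46.3 and 44.7 FPKM in WT samples. It was the most abundant Kcnip2 transcript in each of the 6 samples. NM_030716 averaged 10.9 ± 0.95 FPKM in NS-DADm and 22.3 ± 8.1 FPKM in WT, and NM_145704 averaged 7.30 ± 2.5 FPKM in NS-DADm and 18.7 ± 4.2 FPKM in WT (SD, n = 3 each). The log2 fold change was -1.07 for NM_145703 and -1.33 for NM_145704. NM_001276358 had 4.90, 2.57 and 2.17 FPKM in NS-DADm samples, against 4.62, 37.6 and 19.3 FPKM in WT samples. WT sample 1 lay among the NS-DADm samples for this transcript. As shares of Kcnip2 FPKM, NM_145703 held 50.5 ± 6.4% in NS-DADm and 43.9 ± 5.3% in WT (exact permutation test, p = 0.3, 0.6 adjusted over 6 shares).

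None of these transcripts passed the test over the 17497 transcripts tested (adjusted p = 0.131 for NM_145703 and 0.191 to 0.317 for the other 3), and nor did any tested transcript of the other 8 members. The transcript test called 0.0972% of all transcripts (0.0457% lower and 0.0514% higher), with 1961 at an unadjusted p under 0.05 and 858 called by DESeq2. DESeq2 passed each of the 4 Kcnip2 transcripts (adjusted p = 0.0382 or less). Reads in the shared exons were divided between transcripts by estimation, so a transcript's level is less certain than its gene's. Kcnd2, Kcna4 and Kcne1 each had 1 deposited transcript, with the same expected counts as the gene. These did not pass the transcript test either (adjusted p = 0.213, 0.152 and 0.160), although the genes passed theirs.

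**Figure D2:**
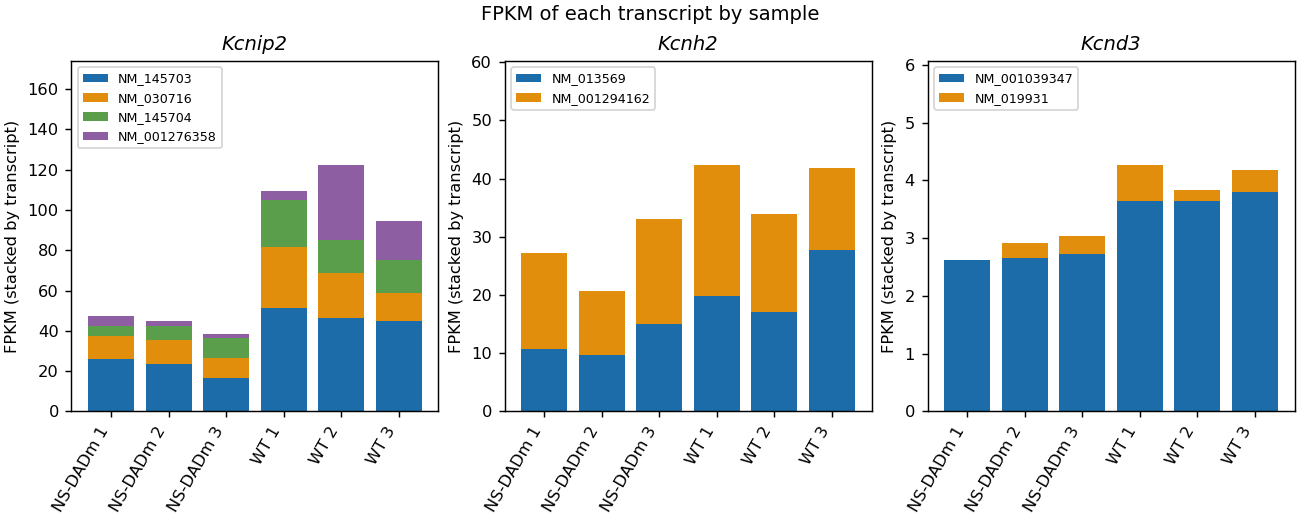
Stacked bars from 0 of the FPKM of each deposited transcript of Kcnip2, Kcnh2 and Kcnd3 in every sample, 1 bar a sample and 1 colour a transcript, with NS-DADm left of WT. The Kcnip2 transcripts that share a first exon are lower in every NS-DADm sample, while NM_001276358 has 1 WT sample at the NS-DADm level; of the Kcnh2 pair, the longer transcript separates the groups and the shorter does not.

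The Kv4 pore genes moved in opposite directions. Kcnd2 (gene 16508) had 12.1, 13.6 and 10.3 FPKM in NS-DADm samples and 8.01, 8.67 and 8.55 FPKM in WT samples. Every NS-DADm sample was above every WT sample, and the NS-DADm samples were the more scattered. Kcnd2 rose 1.45-fold, with 11.99 ± 1.69 FPKM in NS-DADm and 8.41 ± 0.35 FPKM in WT (SD, n = 3 each; log2 fold change 0.54, SE 0.11, adjusted p = 0.0298). Kcnd3 (gene 56543) had 2.62, 2.91 and 3.03 FPKM in NS-DADm samples and 4.27, 3.84 and 4.17 FPKM in WT samples. It fell 1.38-fold, and again the groups did not overlap (log2 fold change -0.46, SE 0.08, adjusted p = 0.0117).

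These calls were close to the threshold. Kcnd2 lost its call when any library but NS-DADm 3 was left out (adjusted p = 0.0549 to 0.111). It also lost it in limma, at 0.0644 with a pseudocount of 1 FPKM and at 0.0640 with 0.1 FPKM. Kcnd3 lost its call without NS-DADm 1 (0.0530) or WT 2 (0.0507) and with limma on either scale (0.0624 and 0.0653). Both kept their direction in each alternative. Within the samples low in atrial markers the log2 ratio of means was 0.71 for Kcnd2 and -0.48 for Kcnd3, and within those high in them it was 0.39 and -0.56.

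The promoters of Kcnip2 and Kcnd2 are shown since these genes encode partners in the same channel and changed in opposite directions. Each is the RefSeq window from 250 bases before to 50 bases after the gene's start, in build GRCm38.p6, at chr19:45816014-45816313 on the minus strand for Kcnip2 and chr6:21215096-21215395 on the plus strand for Kcnd2. Capitals would mark a match to the Iroquois motif ACANNTGT or the nuclear receptor half-site AGGTCA, each searched on both strands.
Kcnip2: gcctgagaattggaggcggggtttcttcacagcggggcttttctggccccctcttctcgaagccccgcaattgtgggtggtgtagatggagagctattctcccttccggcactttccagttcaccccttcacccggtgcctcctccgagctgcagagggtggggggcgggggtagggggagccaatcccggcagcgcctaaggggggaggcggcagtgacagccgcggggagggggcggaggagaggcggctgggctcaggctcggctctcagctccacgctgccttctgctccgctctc
Kcnd2: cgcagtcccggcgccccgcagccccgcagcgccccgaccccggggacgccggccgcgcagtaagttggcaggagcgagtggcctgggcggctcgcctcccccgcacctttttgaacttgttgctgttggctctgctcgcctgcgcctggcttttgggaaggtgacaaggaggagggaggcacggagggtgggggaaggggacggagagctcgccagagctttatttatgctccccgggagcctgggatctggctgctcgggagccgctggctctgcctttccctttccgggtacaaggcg

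Neither motif is in these windows, nor in the windows of Kcnd3, Kcna4, Kcna5 and Kcnh2, the other members with a promoter in the table. Of all 32851 promoter windows of this length, 7.38% hold ACANNTGT and 16.3% hold AGGTCA. The motifs can share bases, and were counted separately. The GC content was 67.0% for the Kcnip2 window and 68.7% for the Kcnd2 window, against a median of 52.7% over all windows.

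Kcnd3 lies on the plus strand of chromosome 3 and had 2 deposited transcripts whose coding sequences differ by an optional exon of 57 bases. Their deposited lengths differ far more, at 7182 bases for NM_001039347 and 1968 bases for NM_019931. Their shares below therefore compare whole transcripts and do not measure use of the exon alone. The stretch around it is shown with that exon in capitals, from GENCODE M21 (build GRCm38).
NM_019931: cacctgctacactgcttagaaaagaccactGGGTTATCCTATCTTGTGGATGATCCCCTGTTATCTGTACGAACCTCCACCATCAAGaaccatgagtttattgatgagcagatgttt
NM_001039347: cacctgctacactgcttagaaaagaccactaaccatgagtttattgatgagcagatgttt

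NM_001039347, which skips the exon, held 93.5 ± 5.7% of Kcnd3 FPKM in NS-DADm and 90.5 ± 4.9% in WT (SD, n = 3 each; exact permutation test, p = 0.6). It had 2.62, 2.65 and 2.72 FPKM in NS-DADm samples and 3.64, 3.64 and 3.80 FPKM in WT samples, with no overlap (log2 fold change -0.45, adjusted p = 0.1004; 0.000351 with DESeq2). The transcript with the exon was at 0.63 FPKM or less in every sample, and was listed in 5 of the 6. It was too low to be tested.

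The balance of channel partners was then set out as ratios of FPKM within each sample, which do not depend on library scaling. Kcnip2 per summed Kcnd2 and Kcnd3 was 3.22, 2.72 and 2.91 in NS-DADm samples, against 8.92, 9.79 and 7.44 in WT samples. The ratio was 2.94-fold lower in NS-DADm, with no overlap (log2 ratio 1.56 ± 0.12 in NS-DADm and 3.11 ± 0.20 in WT, SD, n = 3 each). Kcnd2 per Kcnd3 was 4.62, 4.68 and 3.38 in NS-DADm samples, against 1.88, 2.26 and 2.05 in WT samples. That ratio was 2.03-fold higher in NS-DADm, again with no overlap. For each of the 3 ratios computed, with Kcne1 per Kcnq1 below, the two-sided exact permutation test gave p = 0.1, the smallest that 3 samples against 3 allow (0.1 after adjustment over the 3).

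**Figure D3:**
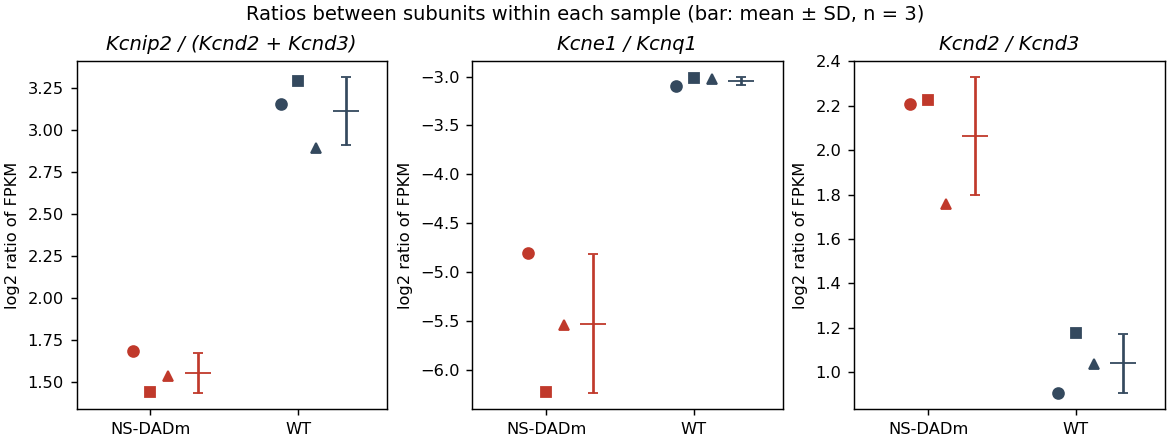
Log2 ratio of FPKM between channel partners within each sample, for Kcnip2 to Kcnd2 plus Kcnd3, Kcne1 to Kcnq1, and Kcnd2 to Kcnd3, with NS-DADm left of WT and bars for the mean and SD (n = 3 each). The first and second ratios are lower and the third is higher in all 3 NS-DADm samples.

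Kcna4 (gene 16492), the pore of the slow transient current, was the least expressed of the 9 genes. It had 0.14, 0.10 and 0.07 FPKM in NS-DADm samples and 0.49, 0.49 and 0.50 FPKM in WT samples. The WT samples were nearly equal and the groups were far apart, although on few reads: 8, 6 and 4 expected counts in NS-DADm samples, against 25, 24 and 27 in WT samples. Kcna4 fell 4.75-fold (log2 fold change -2.25, SE 0.33, adjusted p = 0.00724). Its 95% interval, -2.99 to -1.50, was wide at this depth. A pseudocount hides most of a change at such a level, and limma on log2(FPKM + 1) gave a log2 difference of -0.44.

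Kcne1 (gene 16509), the accessory subunit of the slow delayed rectifier, had 0.71, 0.23 and 0.40 FPKM in NS-DADm samples. It had 2.53, 2.07 and 2.31 FPKM in WT samples. These are 27, 9 and 15 expected counts in NS-DADm samples and 84, 65 and 80 in WT samples, so every NS-DADm sample was well below every WT sample. Kcne1 fell 5.10-fold (log2 fold change -2.35, SE 0.31, 95% interval -3.04 to -1.66, adjusted p = 0.00444). Its size depended on the samples set against each other, at -2.85 without NS-DADm 1 and -2.04 without NS-DADm 2, and the log2 ratio of means was -3.32 within the samples low in atrial markers and -2.06 within those high in them.

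Kcnq1 (gene 16535), the pore that KCNE1 joins, had 19.8, 17.2 and 18.6 FPKM in NS-DADm samples and 21.6, 16.8 and 18.8 FPKM in WT samples. The groups overlapped throughout, with 18.5 ± 1.3 FPKM in NS-DADm and 19.1 ± 2.4 FPKM in WT (SD, n = 3 each). The log2 fold change was -0.02 (SE 0.10, adjusted p = 0.952), and its 95% interval, -0.23 to 0.20, was centred near 0. There were 27.9, 74.7 and 46.5 Kcnq1 FPKM per Kcne1 FPKM in NS-DADm samples, against 8.54, 8.10 and 8.15 in WT samples. The ratio of Kcne1 to Kcnq1 was thus 5.57-fold lower in NS-DADm, and it hardly varied among WT samples. Kcnq1ot1, a noncoding RNA from the opposite strand of the Kcnq1 locus, had 0.73 to 0.84 FPKM in NS-DADm samples and 0.77 to 0.92 FPKM in WT samples. Whether counting used the strand is not given in the sources used here, so reads of overlapping stretches cannot be assigned to 1 of them.

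Kcna5 (gene 16493), the pore of the ultrarapid current, had 14.02, 14.85 and 11.40 FPKM in NS-DADm samples and 15.27, 11.50 and 13.84 FPKM in WT samples. Each group held both high and low samples. Its log2 fold change was 0.01 (SE 0.13, adjusted p = 0.974), with a 95% interval of -0.27 to 0.29.

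Kcnh2 (gene 16511), the pore of the rapid delayed rectifier, had 27.3, 20.7 and 33.1 FPKM in NS-DADm samples and 42.4, 33.9 and 41.8 FPKM in WT samples. The groups did not overlap, but NS-DADm 3 came close to WT 2. Means were 27.0 ± 6.2 FPKM in NS-DADm and 39.4 ± 4.7 FPKM in WT (SD, n = 3 each), and the difference did not pass the test (log2 fold change -0.57, SE 0.14, adjusted p = 0.0647). It passed with the atrial score as a covariate (log2 fold change -0.74, adjusted p = 0.00329), with no filter on low counts (0.0284), without NS-DADm 3 (0.0189) and with DESeq2 (0.000894). The log2 ratio of means was -0.88 within the samples low in atrial markers and -0.47 within those high in them.

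Kcnh2 lies on the minus strand of chromosome 5 and had 2 deposited transcripts that begin at different exons. NM_013569 has 1134 coding bases of its own in 5 exons, NM_001294162 has 108 in 1 exon, and they share 2352 coding bases in 10 exons. Their first coding exons, which tell them apart, are given from GENCODE M21 (build GRCm38), in capitals since every base is in 1 of the transcripts alone.
NM_013569: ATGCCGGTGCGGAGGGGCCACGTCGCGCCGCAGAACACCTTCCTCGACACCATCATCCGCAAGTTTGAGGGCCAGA
NM_001294162: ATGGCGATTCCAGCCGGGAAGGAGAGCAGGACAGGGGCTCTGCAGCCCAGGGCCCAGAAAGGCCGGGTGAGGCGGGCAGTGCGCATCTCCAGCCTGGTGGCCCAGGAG

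NM_013569, the longer transcript, had 10.8, 9.64 and 15.1 FPKM in NS-DADm samples and 19.9, 17.2 and 27.7 FPKM in WT samples. Every NS-DADm sample was lower than every WT sample, and the difference did not pass the test (log2 fold change -0.84, SE 0.23, adjusted p = 0.285; 0.00688 with DESeq2). NM_001294162, the shorter one, had 16.49, 11.04 and 18.02 FPKM in NS-DADm samples and 22.49, 16.76 and 14.06 FPKM in WT samples. Its groups overlapped (log2 fold change -0.21, SE 0.24, adjusted p = 0.845). The longer transcript held 39.6, 46.6 and 45.6% of Kcnh2 FPKM in NS-DADm samples and 47.0, 50.6 and 66.3% in WT samples. The gap between NS-DADm 2 and WT 1 was small (exact permutation test, p = 0.1, the smallest possible, and 0.6 adjusted over 6 shares).

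Irx5 (gene 54352), the repressor of Kcnd2, had 4.49, 2.83 and 4.95 FPKM in NS-DADm samples and 5.53, 5.48 and 5.64 FPKM in WT samples. All NS-DADm samples were below the narrow WT range. NS-DADm 2, the lowest, was also the NS-DADm sample low in atrial markers, and without it the log2 fold change was -0.22. The difference did not pass the test (log2 fold change -0.42, SE 0.18, adjusted p = 0.249; unadjusted p = 0.0402), and it passed in none of the alternatives run. Its groups sat closer within the samples high in atrial markers (log2 ratio of means -0.26) than within those low in them (-0.96).

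**Figure D4:**
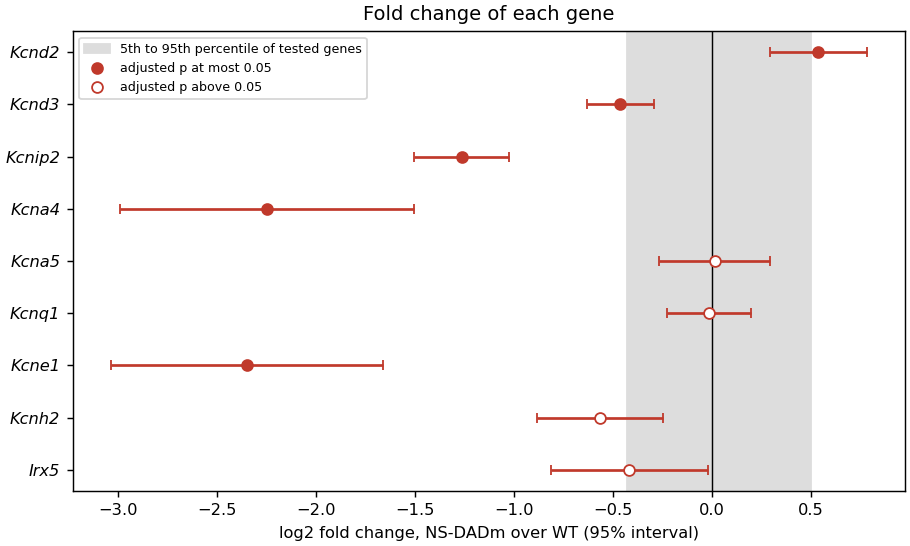
Log2 fold change of the 9 genes, NS-DADm over WT, with 95% intervals from edgeR's quasi-likelihood test, filled points for an adjusted p of at most 0.05, and a grey band from the 5th to the 95th percentile of all tested genes. The intervals of Kcnip2, Kcnd3, Kcna4 and Kcne1 lie below 0 and that of Kcnd2 above it, with filled points. Kcnh2 and Irx5 lie below 0 with open points, and Kcna5 and Kcnq1 are centred near 0.

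Mean levels put the 9 genes in the same order in both groups: Kcnip2, Kcnh2, Kcnq1, Kcna5, Kcnd2, Irx5, Kcnd3, Kcne1 and Kcna4, from high to low FPKM. In NS-DADm samples the ranges of Kcna5 and Kcnd2 overlapped, as did those of Irx5 and Kcnd3. In WT samples no neighbours in that order overlapped. The 4 transient outward genes summed to 62.2, 61.7 and 52.0 FPKM in NS-DADm samples and 122.3, 135.5 and 107.8 FPKM in WT samples. The 4 delayed rectifier genes summed to 61.9, 53.0 and 63.5 FPKM in NS-DADm samples and 81.8, 64.3 and 76.8 FPKM in WT samples. The transient outward sum, mostly Kcnip2, was thus near the delayed rectifier sum in NS-DADm samples and above it in every WT sample.

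Other genes of the potassium channel family were read against the 3.2% called over all tested genes. Of 34 other voltage-gated pore genes 13 were expressed enough to be tested, and none was called (median log2 fold change -0.29). Of 14 other accessory subunits 6 were tested and none was called (median 0.05). Kcnab1, a Kv beta subunit, had 0.25 to 0.52 FPKM in NS-DADm samples and 0.32 to 0.42 FPKM in WT samples (adjusted p = 0.932). Kcne2, a partner of Kcnh2, was at 0.05 FPKM in NS-DADm 2, NS-DADm 3 and WT 3, was not listed in the other samples, and was not tested.

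Of 18 tested potassium channels of other families, 1 fell and none rose (median 0.05), so the count of calls in these lists is no result about other potassium channels. Kcnk2, the stretch-sensitive background channel TREK, fell 1.92-fold, with 0.67, 0.69 and 0.93 FPKM in NS-DADm samples and 1.44, 1.62 and 1.36 FPKM in WT samples (log2 fold change -0.94, adjusted p = 0.0438). Its call was lost without any 1 library but NS-DADm 3 (adjusted p = 0.0590 to 0.169), with DESeq2 (0.0569), with limma on log2(FPKM + 0.1) (0.0559) and with the atrial score as covariate (0.0654). Kcnj2, the main inward rectifier that holds the resting potential, averaged 13.5 ± 1.0 FPKM in NS-DADm and 14.4 ± 2.3 FPKM in WT (adjusted p = 0.795).

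Among 18 genes of channel anchoring, trafficking and turnover, 2 rose and 1 fell (median -0.03). Rnf207, a RING finger protein linked to human cardiac repolarization, fell 1.52-fold, with 19.3, 15.1 and 15.2 FPKM in NS-DADm samples and 25.1, 26.2 and 25.1 FPKM in WT samples (adjusted p = 0.0125; 0.0703 without WT 2). Fhl1, a LIM protein of the sarcomere, rose 1.29-fold, to 86.4 ± 9.2 FPKM in NS-DADm, against 68.4 ± 1.7 FPKM in WT (adjusted p = 0.0295; 0.0525 to 0.109 without any 1 library but NS-DADm 2, and 0.0765 and 0.0766 with limma).

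The 4 Iroquois relatives of Irx5 that could be tested, of 5, had negative log2 fold changes, and none passed the test (median -0.47). Irx2 had 1.35 to 1.43 FPKM in NS-DADm samples and 2.13 to 2.76 FPKM in WT samples (adjusted p = 0.0577), and is named with Irx1 after its values were seen. Irx1 averaged 2.40 ± 0.80 FPKM in NS-DADm and 3.67 ± 0.38 FPKM in WT (adjusted p = 0.206). Irx4, a ventricular factor, averaged 12.1 ± 0.98 FPKM in NS-DADm and 15.6 ± 1.8 FPKM in WT (adjusted p = 0.102; 0.0346 without WT 3). Irx3, which acts in the conduction system, averaged 14.1 ± 3.5 FPKM in NS-DADm and 16.5 ± 0.74 FPKM in WT (adjusted p = 0.484; 0.047 without NS-DADm 3).

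Of 21 other regulators of these channel genes, 1 rose and none fell (median -0.02). Foxo1, a forkhead factor, rose 1.24-fold, to 8.87 ± 0.38 FPKM in NS-DADm, against 7.24 ± 0.23 FPKM in WT (SD, n = 3 each; adjusted p = 0.0487), and lost its call without any 1 library (0.0682 to 0.149), with DESeq2 (0.0606), with limma (0.111 and 0.114) and with the atrial score as covariate (0.0673). Klf15, a factor known to drive Kcnip2 in mouse heart, had 42.4, 48.5 and 45.0 FPKM in NS-DADm samples and 32.6, 30.6 and 43.0 FPKM in WT samples. WT 3 was close to the NS-DADm samples, and the difference did not pass the test (log2 fold change 0.38, adjusted p = 0.113). It passed without WT 3 (0.0126) and with DESeq2 (0.0286).

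Genes with a closely similar pattern over the 6 samples were found for each gene that rose or fell, by Pearson's r on log2(FPKM + 0.1) among 11134 or 11135 other genes. They were Ywhae, Arhgap29 and Prps1 for Kcnip2, Perm1, Gins4 and Actn2 for Kcnd2, and Trmt1l, Glo1 and Nt5m for Kcnd3. They were Tspan7 and Gpr27 for Kcna4, and Fgd1, Snn and Ogn for Kcne1. All 14 had r of 0.990 or more, which is a description over 6 samples that share the division into groups. Each differed less between the groups than the channel gene it resembled: Perm1, an activator of muscle mitochondrial genes, averaged 138.7 FPKM in NS-DADm and 112.0 FPKM in WT.

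Summed markers of several other cell types lay apart in the groups. Macrophage markers summed to 398.1 to 456.2 FPKM in NS-DADm samples and 304.0 to 341.9 FPKM in WT samples. Of these 12 genes 6 rose, against 1.79% of all tested genes, and all 12 had positive log2 fold changes (median 0.425). Conduction system markers summed to 71.2 to 81.6 FPKM in NS-DADm samples and 88.5 to 95.4 FPKM in WT samples. Of these, 3 of 13 tested fell (Cacna1g, Smoc2 and Gjc1), against 1.41% of all tested genes. Most of that gap was Smoc2, with 41.0 to 46.2 FPKM in NS-DADm samples and 52.8 to 60.8 FPKM in WT samples, while 5 of the 13 had positive log2 fold changes (median -0.06). Isl1, also in that list, was not tested: it was at 0.13 FPKM in NS-DADm 1 and 0.17 FPKM in NS-DADm 3, and was not listed in NS-DADm 2 or any WT sample. Hcn4, named after its values were seen, had 1.38, 1.13 and 1.31 FPKM in NS-DADm samples and 1.17, 1.63 and 2.62 FPKM in WT samples. Its difference did not pass the test (log2 fold change -0.48, adjusted p = 0.378). Smooth muscle and pericyte markers summed to 312.6 to 352.8 FPKM in NS-DADm samples and 384.0 to 406.5 FPKM in WT samples, with none of 10 called, 4 positive and a median of -0.03. The pericyte marker Rgs5 made up most of that gap, with 155.0 to 183.4 FPKM in NS-DADm samples and 196.1 to 227.9 FPKM in WT samples, and is named, like Smoc2 above, after its values were seen. Nerve and Schwann cell markers summed to 10.5 to 15.9 FPKM in NS-DADm samples and 17.0 to 20.4 FPKM in WT samples. Of these, 1 of 7 tested fell (Dbh), against the same 1.41%. Of the 7, 1 was positive (Tubb3), and the median was -0.475. Uchl1 had the largest gap, with a mean of 5.98 FPKM in NS-DADm and 8.74 FPKM in WT. Th, not tested, was at 0.38 FPKM in NS-DADm 1 and 0.34 FPKM in NS-DADm 3, and was not listed in any WT sample. Uchl1 and Th are named after their values were seen. Erythrocyte markers summed to 3394 to 6680 FPKM in NS-DADm samples and 6708 to 7970 FPKM in WT samples. None of these 6 was called, and all 6 had negative log2 fold changes (median -0.504). Adipocyte markers overlapped, at 52.3, 8.14 and 273.2 FPKM in NS-DADm samples and 11.1, 4.10 and 78.8 FPKM in WT samples, with none of 7 tested called and all 7 positive (median 1.68). The part of these cell types in the channel results was not tested.

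None of the 7 atrial markers was called, but all 7 had positive log2 fold changes (median 1.02), with groups that overlapped. Bmp10, the defining one, was not listed in NS-DADm 2, WT 1 and WT 2, and is taken as 0 there. Kcnip2, Kcnd3, Kcna4 and Kcne1 were lower, and Kcnd2 was higher, in NS-DADm both within the samples low in atrial markers (NS-DADm 2 against WT 1 and WT 2) and within those high in them (NS-DADm 1 and NS-DADm 3 against WT 3). The groups of these genes did not overlap over all 6 samples, so the direction within each set could not have differed. It is therefore no further support for their calls. Kcna5 and Kcnq1 changed sign between these sets, at 0.15 and -0.12 for Kcna5 and -0.16 and 0.03 for Kcnq1.

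**Figure D5:**
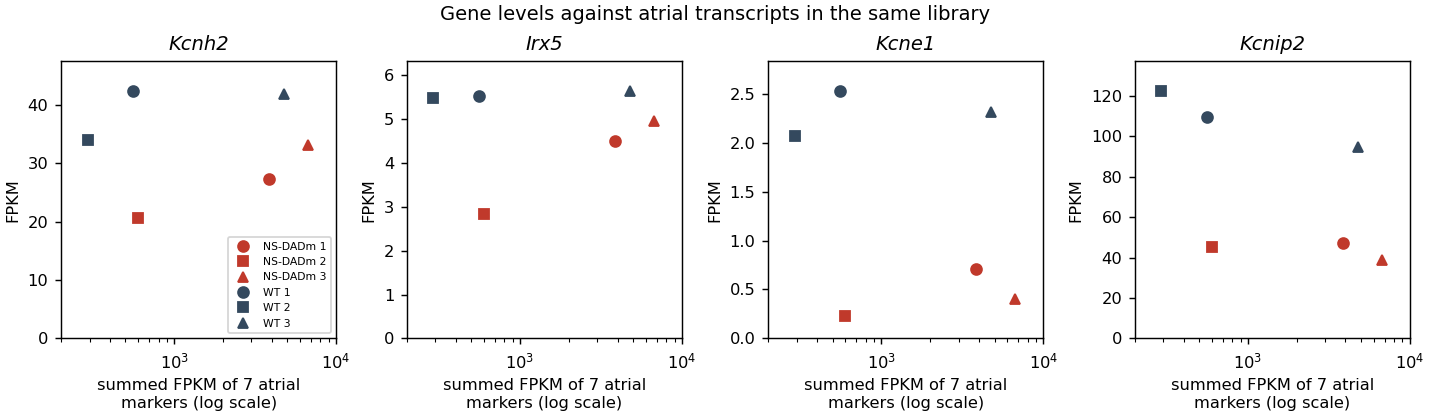
FPKM of Kcnh2, Irx5, Kcne1 and Kcnip2 (vertical axis, from 0) against the summed FPKM of 7 atrial muscle markers (horizontal log axis) in each of the 6 samples, coloured by group with NS-DADm first in the legend. NS-DADm 2, WT 1 and WT 2 sit at low atrial sums, and for each gene shown the groups do not overlap over the 6 samples.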

How the data were processed

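RNA from the myocardium of 6 mouse samples was measured by sequencing. The tissue was flash frozen, its RNA taken up in Trizol and libraries made by BGI protocols, per the labels' protocols. The authors deposited expected counts and FPKM per gene and per transcript, per the file headers. HISAT is named without a version, per the submitters' processing notes. The sources used here do not give the estimator, the build or the annotation. The lowest FPKM listed was 0.01, and features absent from a table were set to 0. A row with no symbol, 3.21e-04% of the counts or less in every sample, was dropped.

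Expected counts were rounded, filtered by filterByExpr, scaled by TMM and tested by quasi-likelihood in edgeR (4.0.16, with R 4.3.3), with Benjamini-Hochberg adjustment and a threshold of 0.05. Standard errors and 95% intervals were derived from the F statistic and cover the spread between samples. The procedure was tested on simulated data. Per gene it called 56.7% of 1.5-fold and 80.6% of 2-fold changes, with 14 false calls among 171. That share of false calls was above the threshold of 0.05 in this simulation, so calls close to the threshold are less certain. Per transcript it called only 10.4% of 1.5-fold and 25.4% of 2-fold changes, so a transcript that was not called may still differ. Alternatives were DESeq2 size factors, DESeq2's test (1.42.0), no filter on low counts, a mean FPKM of at least 1, limma (3.58.1) on log2(FPKM + 1) and log2(FPKM + 0.1), a replicate block, an atrial score as covariate, and each library left out. The ratios within the low and high atrial samples were added after seeing the data.

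The members, gene lists and tests were chosen with earlier results of these data known. The text names all 9 members, every called gene of each related list up to the 6 with the smallest p, Kcne2, Kcnab1, Irx3, Irx4, Klf15 and Kcnj2, and for each called member the 3 genes most alike. The other corepressor with mutations and a few genes that fall under this rule are not reported here.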

Additional observations from a re-analysis of the deposited data

How the results depend on the processing

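Kcnip2 and Kcne1 fell in each of the 14 alternatives, and Kcna4 in each of the 13 that gave a value, since a mean FPKM of at least 1 removes it. Irx5 passed in none of 14. The number of members that rose was 1, and was 0 with limma on log2(FPKM + 1), 0 with limma on log2(FPKM + 0.1) and 0 to 1 with a library left out. The number that fell was 4, and 3 to 5 with a library left out. Of all genes 420 were called, against 895 with the replicate block, 272 and 267 with limma on log2(FPKM + 1) and log2(FPKM + 0.1), and 117 (without WT 2) to 382 with a library left out. Of all transcripts 17 were called, against 2 with the replicate block, 858 with DESeq2's test, and 3 to 7 with a library left out. Of the related lists 5 genes were called, against 13 with the replicate block, 2 with limma on log2(FPKM + 0.1), and 0 (without WT 2) to 6 with a library left out. In the labels, samples with the same replicate number share only that number. Pairs of them had correlations of their deviations of -0.05, 0.33 and 0.40, against -0.439 to 0.19 for pairs with different numbers. In each group replicate 3 had the highest and replicate 2 the lowest summed atrial markers. What the replicate number stands for was not tested. With the replicate block, Kcnh2 and Klf15 passed (adjusted p = 0.00101 and 0.0392). Small log2 fold changes turned sign: Kcna5 was -0.0106 and -0.0113 with limma on log2(FPKM + 1) and log2(FPKM + 0.1), and with a library left out ranged from -0.0843 to 0.125 for Kcna5, -0.0941 to 0.0803 for Kcnq1, -0.214 to 0.301 for Kcnab1 and -0.19 to 0.054 for Kcnj2. Kcnab1 was -0.11 with the atrial score as covariate. The cause was not tested. Depth limits Kcna4 and Kcne1, which rest on 4 to 27 expected counts in NS-DADm samples.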
